A study of Mus musculus with 72 samples.

Results

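The genes described here are 5 transcriptional repressors of the circadian clock: Nr1d1 and Nr1d2, which encode the nuclear receptors REV-ERBα and REV-ERBβ, Bhlhe40 and Bhlhe41, which encode the basic helix-loop-helix proteins DEC1 and DEC2, and Ciart, which encodes CHRONO. They were taken by symbol from the gene count tables of liver and of the suprachiasmatic nucleus (SCN), the hypothalamic pacemaker, and all 5 were found in both. They are 5 of 24091 genes in the tables as a whole, of which 22823 were listed for liver, 15759 for SCN and 14491 for both. All 5 passed the filter on low counts in both tissues.

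The animals were C57BL/6J mice of 8 to 12 weeks, housed singly and fed freely for 11 days on either a diet lacking methionine and choline (MCD) or a control diet of equal calories. They lived in 12 h light and 12 h dark for 10 days, spent day 11 in darkness, and were killed every 4 h from circadian time (CT) 0 to CT20, where CT0 is the start of the former light phase. Liver RNA was taken from the middle of the left lobe, and SCN RNA from tissue cut by laser from stained sections, and both were sequenced as poly(A) RNA. The 24 combinations of tissue, diet and circadian time have 3 libraries apiece, 2 labelled male and 1 labelled female, which gives 72 libraries in all, although the protocol text speaks of male mice. The MCD diet is a dietary model of fatty liver. Whether the libraries of a group came from separate mice is stated only through their replicate labels, so p-values measure the spread between these libraries.

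REV-ERBs bind response elements shared with the activating ROR receptors and silence nearby genes through the NCoR and HDAC3 corepressor complex, and their best known target is the clock activator gene Bmal1, listed in these tables as Arntl. DEC1 and DEC2 bind E-boxes, the same DNA elements that the CLOCK and BMAL1 activators use, and CHRONO binds BMAL1 and lowers its activity. All 5 genes are themselves driven by CLOCK and BMAL1 through E-boxes, so each is both an output and a brake of the same loop. In liver the REV-ERBs are also known for repressing genes of lipid and bile acid metabolism.

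Promoter sequence was available for 4 of the 5 genes and is shown to give the clock-related letter motifs near each start, since the genes are known clock outputs. Each line below is the 250 bases before the RefSeq transcription start on the GRCm38.p6 build, 5′ to 3′ on the coding strand, which is the minus strand for all 4. Capitals mark an E-box CACGTG, an E′-box CACGTT or its complement AACGTG, and AGGTCA, the core of the REV-ERB and ROR response element.

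Nr1d1, chr11:98775378-98775627: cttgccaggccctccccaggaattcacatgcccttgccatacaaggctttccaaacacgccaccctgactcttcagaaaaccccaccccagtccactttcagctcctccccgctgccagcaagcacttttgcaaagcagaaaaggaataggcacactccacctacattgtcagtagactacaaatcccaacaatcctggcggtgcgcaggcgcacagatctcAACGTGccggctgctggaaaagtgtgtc
Nr1d2, chr14:18239107-18239356: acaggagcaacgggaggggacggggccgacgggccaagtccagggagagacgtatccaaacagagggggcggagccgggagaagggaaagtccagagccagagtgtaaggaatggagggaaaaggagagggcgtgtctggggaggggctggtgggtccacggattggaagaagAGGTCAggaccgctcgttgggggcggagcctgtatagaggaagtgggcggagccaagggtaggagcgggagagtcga
Bhlhe41, chr6:145865421-145865670: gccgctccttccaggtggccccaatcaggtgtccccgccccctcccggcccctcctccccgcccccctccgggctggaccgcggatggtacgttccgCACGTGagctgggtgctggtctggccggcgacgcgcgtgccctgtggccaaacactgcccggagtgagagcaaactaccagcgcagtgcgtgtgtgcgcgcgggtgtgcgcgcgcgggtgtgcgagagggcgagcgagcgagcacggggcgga
Ciart, chr3:95882229-95882478: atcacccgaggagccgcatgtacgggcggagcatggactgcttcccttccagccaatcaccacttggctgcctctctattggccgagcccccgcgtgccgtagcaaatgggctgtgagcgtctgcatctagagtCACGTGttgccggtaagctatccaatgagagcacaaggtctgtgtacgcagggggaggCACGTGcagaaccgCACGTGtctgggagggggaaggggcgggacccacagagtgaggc

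Ciart held 3 copies of CACGTG, which began 116, 58 and 44 bases before its start, and Bhlhe41 held 1 copy, 153 bases before its start. Nr1d1 held AACGTG 28 bases before its start, and Nr1d2 held AGGTCA 77 bases before its start. Among 32851 mouse promoters of the same length, searched on both strands, 6.02% held CACGTG, 3.85% held CACGTT and 14% held AGGTCA. The D-box forms TTATGTAA and TTACGTAA, in 0.819% and 0.113% of promoters, were not found in these 4 windows. A match describes these letters only, and no binding data were used.

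The genes lie apart in the genome (GRCm38 coordinates from GENCODE M21, whereas the counts were made on GRCm39): Nr1d1 at chr11:98767932-98775333, Nr1d2 at chr14:18204054-18239127, Bhlhe40 at chr6:108660629-108666925, Bhlhe41 at chr6:145858243-145865558 and Ciart at chr3:95878503-95882251. Nr1d1 shares 1075 bases with Thra, the thyroid hormone receptor gene on the opposite strand, of which 263 lie in exons of both. In CPM, which are counts scaled to a common library size, Thra stood at 8.89 to 24.7 in liver and at 465 to 757 in SCN. Bhlhe41 shares 1280 exonic bases with the antisense gene Gm43909, Bhlhe40 shares 118 with 0610040F04Rik, and C920021L13Rik spans Ciart without exonic overlap. The kit kept strand, and use of strand in the counting is not stated in the labels. Reads in those stretches may belong to either gene.

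Gene counts per library summed to 52.6 to 86.7 M (mega-counts) in liver and to 23.4 to 79.8 M in SCN. Summed over 5 hepatocyte markers, liver stood at 72884 to 112134 CPM on control and 54007 to 113972 CPM on MCD. The 8 SCN markers summed to 1886 to 3414 CPM on control and 1994 to 4407 CPM on MCD in SCN, beside oligodendrocyte markers at 1082 to 2342 CPM over both diets. In SCN, Alb was the 1 hepatocyte marker of the 5 in the SCN table, and it reached at most 26.3 CPM. The liver library labelled control CT8 (a), 1 of 2 male libraries of that group without a replicate number, stood apart. On a scale over 1840 diet-responsive genes, where 0 is the mean of the other control livers and 1 the mean of the MCD livers, it scored 0.982, against -0.196 to 0.289 in the other 17 controls and 0.668 to 1.37 on MCD. The liver libraries also fell into 2 kinds by the mitochondrial transcript mt-Nd6, in CPM from library totals without TMM scaling, at 41.6 to 119 CPM in 8 control and 13 MCD libraries and at 414 to 925 CPM in 10 control and 5 MCD libraries. Results that rest on this library or on these kinds are given with and without them.

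Differences were tested with edgeR's quasi-likelihood test, with 12 groups and sex in 1 model per tissue, and p-values were adjusted over all genes by the Benjamini-Hochberg method at 0.05. Levels are CPM after TMM scaling, which sets libraries level on most of their genes, and each mean is given with its SD over 3 libraries. Diet differences are log2 of MCD over control with their standard error (SE). Overlap of the diets describes the libraries only, since the share of all genes without overlap was not counted. A difference for the day averages the log2 differences of the 6 times, so it can differ in sign from that of the arithmetic means. Both bulk tissues mix cell types, so fewer cells of a type and less RNA per cell cannot be told apart.

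The largest diet difference of any member at any time was that of Ciart, the CHRONO gene, in liver at CT4. Ciart stood at 0.363, 0.339 and 1.20 CPM in the 3 control livers of CT4 and at 4.58, 8.16 and 2.31 CPM in the MCD livers of that time. Every MCD value lay above every control value, and the means were 0.632 ± 0.488 and 5.02 ± 2.95 CPM (SD, n = 3 each). The difference was 3.01 ± 0.55 on the log2 scale (adjusted p = 0.000609), and it was called without any single library, with adjusted p-values under the threshold in all 36 fits. Leaving out all libraries of replicate 1 or of replicate 2 took the adjusted p to 0.0787 (log2 2.77) or 0.0660 (log2 2.18), and without replicate 3 the log2 difference was 4.17 (adjusted p = 0.000159).

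At CT8 Ciart read 5.63 and 9.40 CPM in the control males (a) and (b) and 12.5 CPM in the control female, against 21.3, 39.6 and 23.2 CPM on MCD. The groups again did not overlap, but the difference of 1.63 ± 0.49 did not pass the test (adjusted p = 0.102), and without control CT8 (a) it was 1.36 (adjusted p = 0.156). At that time 263 genes in all were called, and 1212 were called without that library. DESeq2 and limma-voom called the CT8 difference, with adjusted p-values of 0.0287 and 0.0134. At CT12 the order of the diets was the other way, with 31.4, 27.3 and 10.5 CPM under the control diet and 20.6, 13 and 9.96 CPM on MCD, and those groups overlapped (adjusted p = 0.372). Control livers therefore held their highest Ciart mean at CT12, 23.1 ± 11.1 CPM, and MCD livers at CT8, 28.0 ± 10.0 CPM.

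At the remaining times Ciart was low on both diets. It read 0.209, 0.202 and 0.599 CPM in control libraries and 0.487, 0.327 and 0.393 CPM on MCD at CT0. Values lay between 2.52 and 3.67 CPM at CT16 and between 0.445 and 1.28 CPM at CT20, diets together. Averaged over the day, Ciart rose by 0.80 ± 0.22 on MCD (adjusted p = 0.00371). That rise was 0.74 without control CT8 (a) (adjusted p = 0.00691) and 0.71 with a term for the kind of library (adjusted p = 0.0111). Within the low mt-Nd6 kind it was 0.63 (adjusted p = 0.188) and within the high kind 0.96 (adjusted p = 0.191), and without replicate 1 or 2 it was 0.70 (adjusted p = 0.0852) or 0.50 (adjusted p = 0.157). Without replicate 3, which holds the females, it was 1.28 (adjusted p = 3.32e-05).

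**Figure D1:**
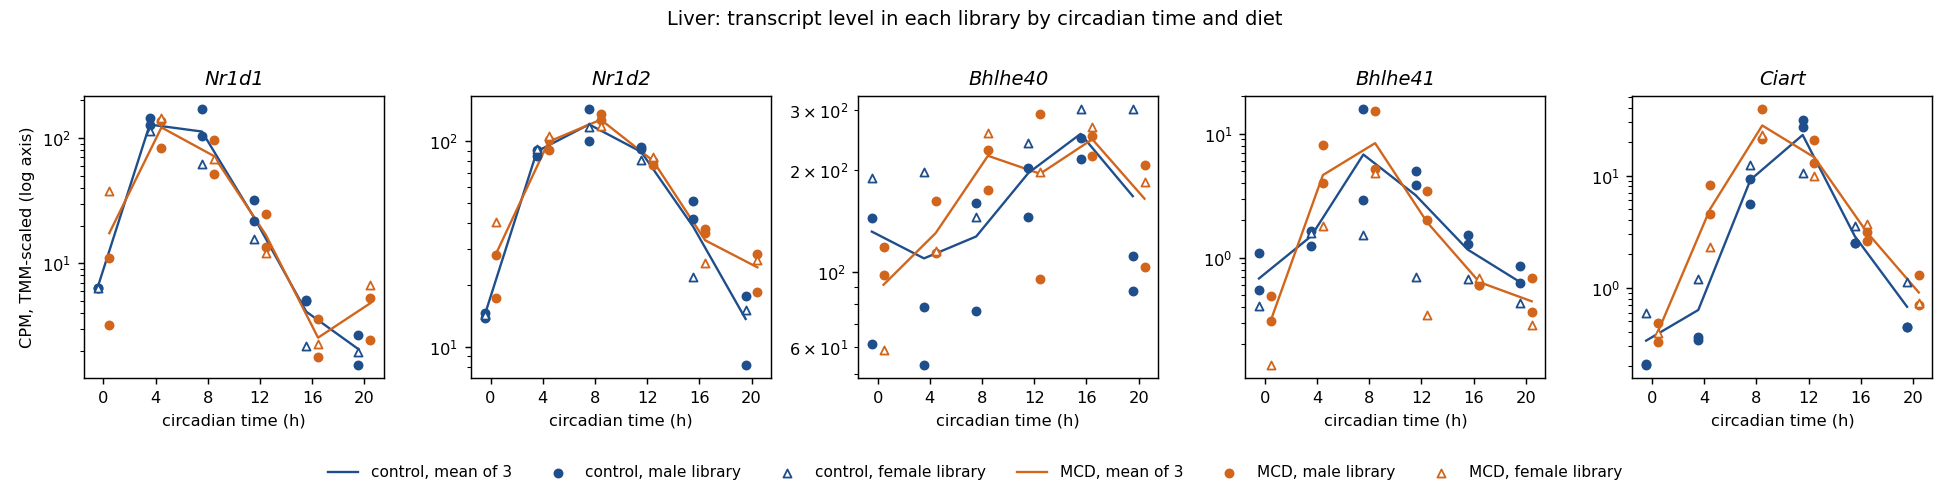
Level of each gene in every liver library (CPM, log axis) by circadian time in hours, control in blue and MCD in orange, with filled circles for males, open triangles for females and lines through the means of 3. At CT4 the 3 MCD livers hold 2.31 to 8.16 CPM of Ciart and the 3 control livers 0.339 to 1.20 CPM, and Nr1d1 spans from 1.53 to 172 CPM over the control day.

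Of the REV-ERB genes, Nr1d2 was called for diet in liver at CT0 and CT20. It read 13.9, 14.6 and 14.3 CPM in control livers at CT0 and 28.0, 17.3 and 40.5 CPM on MCD, with no overlap. The difference was 1.01 ± 0.27 (adjusted p = 0.0152). Leaving out the third MCD library of that time brought it to 0.63 (adjusted p = 0.164), and leaving out the first control library to 0.98 (adjusted p = 0.0631). At CT20, the other time near its trough, Nr1d2 read 17.7, 8.12 and 15.2 CPM under the control diet and 28.1, 18.4 and 26.5 CPM on MCD, again without overlap (0.83 ± 0.27, adjusted p = 0.0453). That call was lost in 26 of the 36 fits that left out 1 library, so it stood at the edge of the threshold.

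Around the peak of Nr1d2 the diets overlapped. It read 85.2, 90.2 and 92.0 CPM in control libraries and 90.7, 101 and 106 CPM on MCD at CT4. At CT8 it read 101, 144 and 118 CPM under the control diet and 127, 136 and 118 CPM on MCD. Averaged over the day Nr1d2 rose by 0.29 ± 0.11 on MCD (adjusted p = 0.0329), a call that was lost in 11 of 36 fits with 1 library left out, with adjusted p-values of 0.0505 to 0.0833 there. Control CT8 (a) was among those libraries (0.26, adjusted p = 0.0577). With a term for the kind of library the value was 0.28 (adjusted p = 0.0562), and within the low and the high kind 0.27 and 0.24 (adjusted p = 0.271 and 0.484).

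Nr1d1, the REV-ERB with the deeper trough in liver, showed no diet difference that passed the test. It read 6.35, 6.40 and 6.40 CPM in control libraries and 11.0, 3.23 and 38 CPM on MCD at CT0, where the MCD libraries spread on both sides of the control ones (1.45 ± 0.57, adjusted p = 0.0981). Without the second MCD library of CT0 the value was 1.99 (adjusted p = 0.0126), and with library totals in place of TMM factors it was 1.73 (adjusted p = 0.0371). Without the female MCD library of CT0, at 38 CPM, it was 0.063 (adjusted p = 0.970), so the size of the difference rested on that library. At CT4, its highest time on both diets, it read 144, 127 and 114 CPM under the control diet and 82.9, 136 and 146 CPM on MCD. At CT8 the control values were 105, 172 and 62.1 CPM and the MCD values 52.0, 96.1 and 68.2 CPM, which overlapped. The average log2 difference over the day was 0.14 ± 0.23 (adjusted p = 0.669), while the arithmetic mean was 46.1 CPM on control and 39.2 CPM on MCD.

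Bhlhe40, the gene for DEC1, had its largest diet difference in liver at CT8 (0.79 ± 0.44, adjusted p = 0.486). Its means there were 127 ± 44.4 CPM on control and 219.5 ± 41.4 CPM on MCD (SD, n = 3 each). On control Bhlhe40 ran from 52.9, 78.4 and 197 CPM at CT4 to 248, 215 and 302 CPM at CT16. On MCD it ran from 97.8, 118 and 58.8 CPM at CT0 to 219.7, 251 and 267 CPM at CT16. The 2 control males and the control female stood far apart at CT4 and at CT20, where they read 111, 87.6 and 302 CPM. None of the 6 times passed the test for diet in Bhlhe40, and its average log2 difference over the day was 0.14 ± 0.18 (adjusted p = 0.568).

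Bhlhe41, the gene for DEC2, was the least abundant in liver. It read 1.63, 1.26 and 1.59 CPM on control at CT4 and 3.98, 8.14 and 1.80 CPM on MCD, with no overlap (1.32 ± 0.59, adjusted p = 0.126). Without the female control library of CT4 that value was 1.97 (adjusted p = 0.0475), and with library totals alone it was 1.58 (adjusted p = 0.0479). Over all fits with 1 library left out it ran from 0.92 to 1.97. At CT8 the control libraries read 2.95, 15.9 and 1.53 CPM and the MCD libraries 5.22, 15.2 and 4.81 CPM, so 1 male in each group stood above the rest. Its average log2 difference over the day was -0.22 ± 0.25 with TMM scaling and 0.06 with library totals alone, and neither passed the test (adjusted p = 0.506 and 0.877). Its arithmetic mean over the day was 2.33 CPM on control and 2.73 CPM on MCD.

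Counted together, 2 of the 5 genes (Nr1d2 and Ciart) were called for the daily mean in liver, both higher on MCD, where 46.6% of all 20249 genes tested were called and 25.3% were called higher. Of the 30 tests of a gene at a time, 3 were called, or 1 at each of CT0, CT4 and CT20. The share of all genes called was 12.6% at CT0, 18.2% at CT4, 11.3% at CT20 and 11.8% over the 6 times together. A count of 2 in 5 is close to the share of all genes. Library totals alone moved the median diet difference of all genes from 0.02 to 0.27, and the share of called genes that were higher on MCD from 54.4% to 87.3%. Ciart and Nr1d2 were called under both scalings. Markers of cell types moved with diet in the same libraries. All 6 Kupffer cell and macrophage markers were called higher on MCD (median 0.50), with sums of 217 to 513 CPM on control and 290 to 625 CPM on MCD. Of 5 erythrocyte markers 4 were called lower (median -0.80), with sums of 130 to 453 and 93.7 to 273 CPM, and of the 5 hepatocyte markers 3 were called lower and 0 higher (median -0.27). Their part in the members' differences was not tested.

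**Figure D2:**
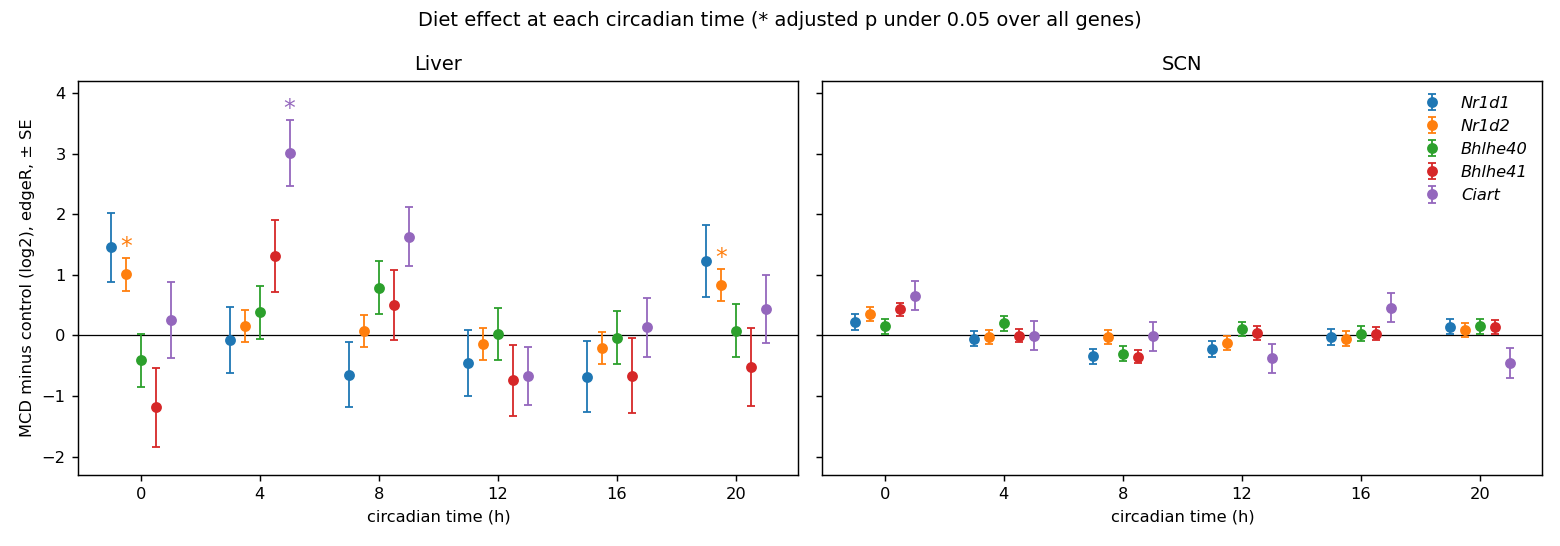
Diet difference of each gene at each circadian time (log2 of MCD over control, points, with the SE as bars) in liver and SCN, where an asterisk marks an adjusted p under 0.05. Liver holds 3 asterisks, Ciart at CT4 and Nr1d2 at CT0 and CT20, and SCN holds none.

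In SCN, Nr1d1, Nr1d2 and Ciart are given first at times when they were high on both diets. At CT4 Nr1d1 read 292, 315 and 263 CPM in control libraries and 307, 329 and 209 CPM on MCD. At CT8 Nr1d2 read 251, 249.7 and 231 CPM under the control diet and 234, 247 and 239.6 CPM on MCD. Ciart at CT4 read 22.5, 20.1 and 20.4 CPM in control libraries and 26.2, 24.7 and 13.9 CPM on MCD. In each of these sets the diets overlapped. The daily means differed by -0.05 ± 0.05 for Nr1d1, 0.04 ± 0.05 for Nr1d2, 0.06 ± 0.05 for Bhlhe40, 0.05 ± 0.04 for Bhlhe41 and 0.04 ± 0.10 for Ciart.

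None of the 5 was called for diet in SCN by edgeR, DESeq2 or limma-voom, and 0 had an unadjusted p under 0.05, where 0.0635% of 15759 genes (10 genes) were called. Of the 30 tests by time 0 were called by edgeR, 6 had an unadjusted p under 0.05 and 1 was called by DESeq2, against 0.0106% called and 3.75% at an unadjusted p under 0.05 over all genes and times. Those 6 fell at CT0 and CT8. Bhlhe41 at CT0 read 83.2, 73.8 and 93.3 CPM under the control diet and 110.4, 106 and 122 CPM on MCD, without overlap (0.44 ± 0.11, adjusted p = 0.278, DESeq2 0.0402). At CT8 it read 135, 121 and 100.1 CPM in control libraries and 87.2, 95 and 96.5 CPM on MCD, so the MCD libraries were then the lower ones, again without overlap (-0.35 ± 0.11, adjusted p = 1.00). Bhlhe40 at CT8 read 49.4, 46.3 and 51.2 CPM under the control diet and 43.6, 36.6 and 39.1 CPM on MCD. Nr1d2 at CT0 read 109.6, 99.9 and 127 CPM in control libraries and 147, 156 and 125 CPM on MCD, where 1 library of each diet overlapped.

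**Figure D3:**
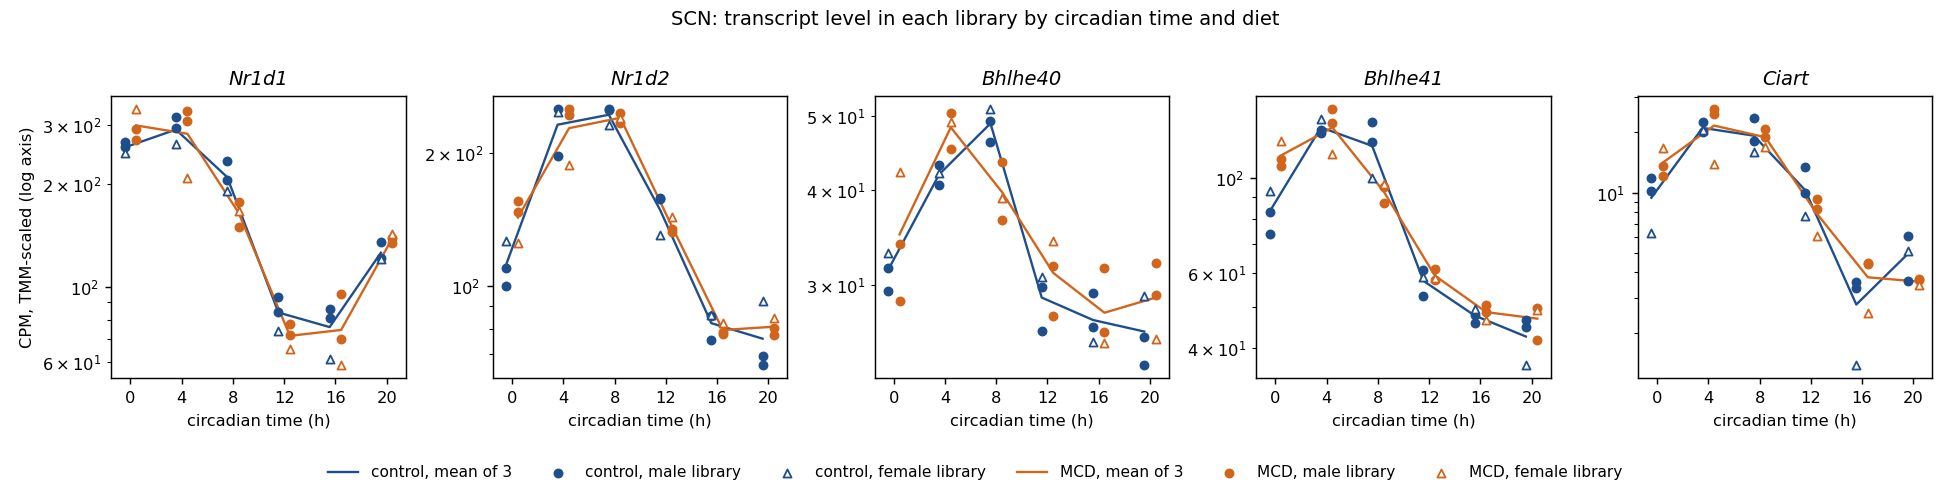
Level of each gene in every SCN library (CPM, log axis) by circadian time in hours, with the same colours and symbols as the liver plot. Bhlhe41 at CT0 stands at 73.8 to 93.3 CPM on control and 106 to 122 CPM on MCD. At CT8 its control mean is the higher, at 119 CPM against 92.9 CPM on MCD. Ciart at CT4 on MCD has an SD of 6.71 CPM around a mean of 21.6 CPM.

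All 5 genes were called rhythmic over 24 h in SCN on both diets. In liver 4 of 5 were called on control and 5 of 5 on MCD, with Bhlhe40 near the threshold on both. The background shares of all genes called rhythmic were 17.8% on control and 28.2% on MCD in liver, and 15.1% and 16.1% in SCN. In liver the highest time mean of Ciart was 68.5-fold above its lowest on control and 69.7-fold on MCD (adjusted p = 2.00e-08 and 1.62e-08). Nr1d1 varied 62.2-fold and 47.8-fold between time means (adjusted p = 7.17e-08 and 2.17e-07). Nr1d2 varied 8.82-fold and 5.22-fold (adjusted p = 1.19e-09 and 4.33e-08), and Bhlhe41 10.7-fold and 27.0-fold (adjusted p = 0.000464 and 4.67e-06). The Bhlhe41 folds were 5.02 without control CT8 (b) and 16.1 without the second MCD male of CT8, and the Ciart fold on control was 112 without the female library of CT0.

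Bhlhe40 had the flattest day in liver, at 2.33-fold on control, or 3.88-fold without the control female of CT4, and 2.69-fold on MCD. Its rhythm stood on either side of the threshold, with adjusted p = 0.0568 on control and 0.0469 on MCD. The unadjusted edgeR p was lower on control (0.0108) than on MCD (0.0129), and the sizes were 1.19 and 1.16 (log2). DESeq2 and limma-voom called that rhythm on control (adjusted p = 0.0138 and 0.0325), and the call on MCD was lost in 24 of 36 fits with 1 library left out. On MCD the high mt-Nd6 kind has a single library at each of CT0, CT4, CT8, CT12 and CT20 and none at CT16. A rhythm test on MCD within that kind rests on those libraries, so it cannot show whether the kind matters. Within the high mt-Nd6 kind, which holds 5 MCD libraries, none of the 5 genes passed the rhythm test on MCD, with adjusted p-values of 0.0696 to 0.792. Within the low kind the rhythms of Nr1d1, Nr1d2, Bhlhe41 and Ciart on MCD were called. On control, Bhlhe41 lost its call within both kinds (adjusted p = 0.0880 and 0.0536).

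In SCN the fitted range on control was below that in liver by more than 2 times its SE for Nr1d1, Nr1d2 and Ciart, and not for Bhlhe40, where SCN minus liver was -0.40 ± 0.33 on control, or Bhlhe41, where it was -0.97 ± 0.51 (log2, SE). On MCD it was below for Bhlhe41 as well (-2.67 ± 0.68), and the value of Bhlhe40 was -0.39 ± 0.38. Between SCN time means Ciart varied 7.59-fold on control and 6.00-fold on MCD, and Nr1d1 3.81-fold and 4.16-fold. Nr1d2 varied 3.21-fold and 3.02-fold, Bhlhe41 3.08-fold and 2.80-fold, and Bhlhe40 1.88-fold and 1.75-fold. The weakest of these rhythms by its test, Bhlhe40 on MCD, had an adjusted p of 8.21e-06. In both tissues Bhlhe40 was thus the flattest of the 5 and Ciart had the largest fold between time means. In control liver the order of Ciart and Nr1d1 was not settled. With 1 library left out their folds there ran from 56.1 to 112 and from 55.1 to 73.3. Their fitted ranges there were 6.09 and 6.35 (log2).

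**Figure D4:**
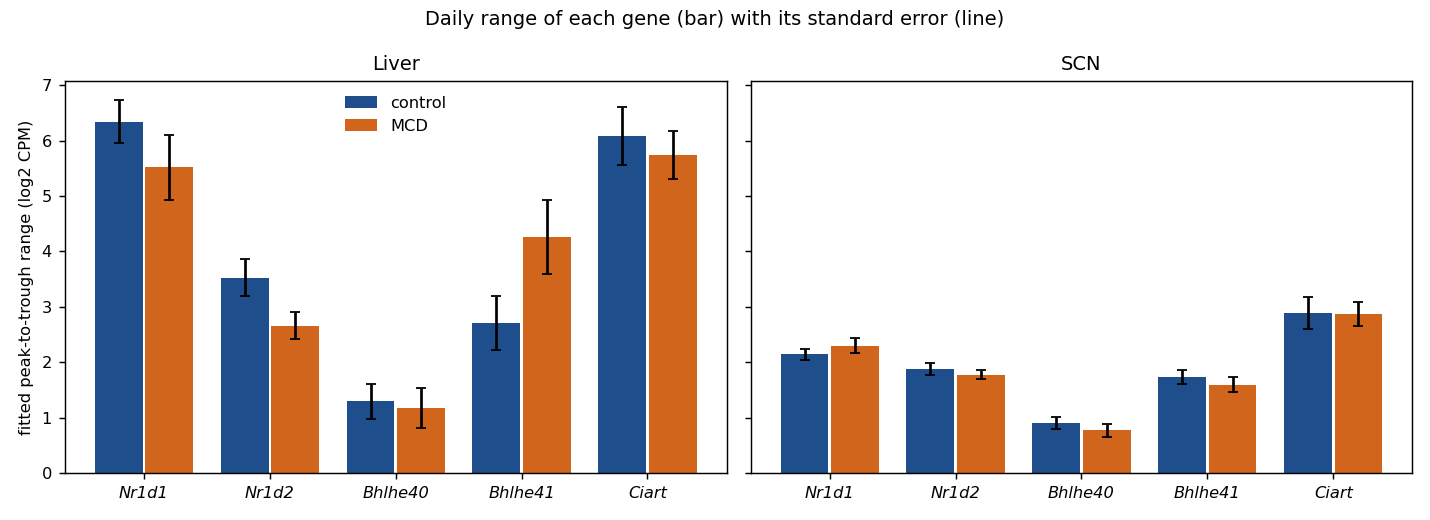
Fitted peak-to-trough range of each gene (bars, log2 CPM, from 0) with its standard error, for control and MCD in liver and SCN. Liver bars for Nr1d1 and Ciart reach 5.52 to 6.35 and no SCN bar passes 2.89.

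A 24 h cosine was fitted to log2 CPM of the 18 libraries of each tissue and diet to place the peaks. In liver the control peaks followed each other as Nr1d1 at CT6.85, Nr1d2 at CT8.83, Bhlhe41 at CT9.22, Ciart at CT11.5 and Bhlhe40 at CT15.2. On MCD they lay at CT5.87, CT7.97, CT7.80, CT9.80 and CT12.9. In SCN the control peaks lay at CT3.08 for Nr1d1, CT5.22 for Bhlhe41, CT5.66 for Ciart, CT6.04 for Bhlhe40 and CT6.71 for Nr1d2, so Nr1d1 was the earliest in both tissues. On MCD the SCN peaks lay at CT2.20, CT4.08, CT5.19, CT4.89 and CT5.97.

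All 10 fitted peaks, 5 genes in each tissue, were earlier on MCD. In liver the shift was -0.98 h for Nr1d1 (95% interval -1.95 to -0.009), -0.86 h for Nr1d2 (-1.87 to 0.14), -2.33 h for Bhlhe40 (-5.42 to 0.75), -1.42 h for Bhlhe41 (-3.29 to 0.46) and -1.68 h for Ciart (-2.58 to -0.78). In SCN it was -0.89 h for Nr1d1 (-1.47 to -0.30), -0.74 h for Nr1d2 (-1.31 to -0.17), -1.16 h for Bhlhe40 (-2.72 to 0.41), -1.14 h for Bhlhe41 (-2.04 to -0.24) and -0.46 h for Ciart (-1.44 to 0.52). The interval left out 0 for Nr1d1 and Ciart in liver and for Nr1d1, Nr1d2 and Bhlhe41 in SCN. Each of the 10 shifts stayed negative when any 1 of the 36 libraries of its tissue was left out.

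An earlier peak on MCD was common to most rhythmic genes. Among genes called rhythmic on both diets, 79.7% of 2271 in liver and 83.6% of 1556 in SCN peaked earlier on MCD, with median shifts of -1.74 h and -0.94 h. Members' shifts in liver were smaller than that median except for Bhlhe40. Within the high mt-Nd6 kind of liver libraries, 10 control and 5 MCD, the shifts of Nr1d1, Nr1d2 and Bhlhe41 were +1.77, +1.01 and +0.93 h, while within the low kind all 5 were negative. The MCD peaks of the high kind rest on single libraries at CT0, CT4, CT8, CT12 and CT20, without any at CT16. The low kind likewise has a single control library at CT0, CT4, CT8 and CT20.

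**Figure D5:**
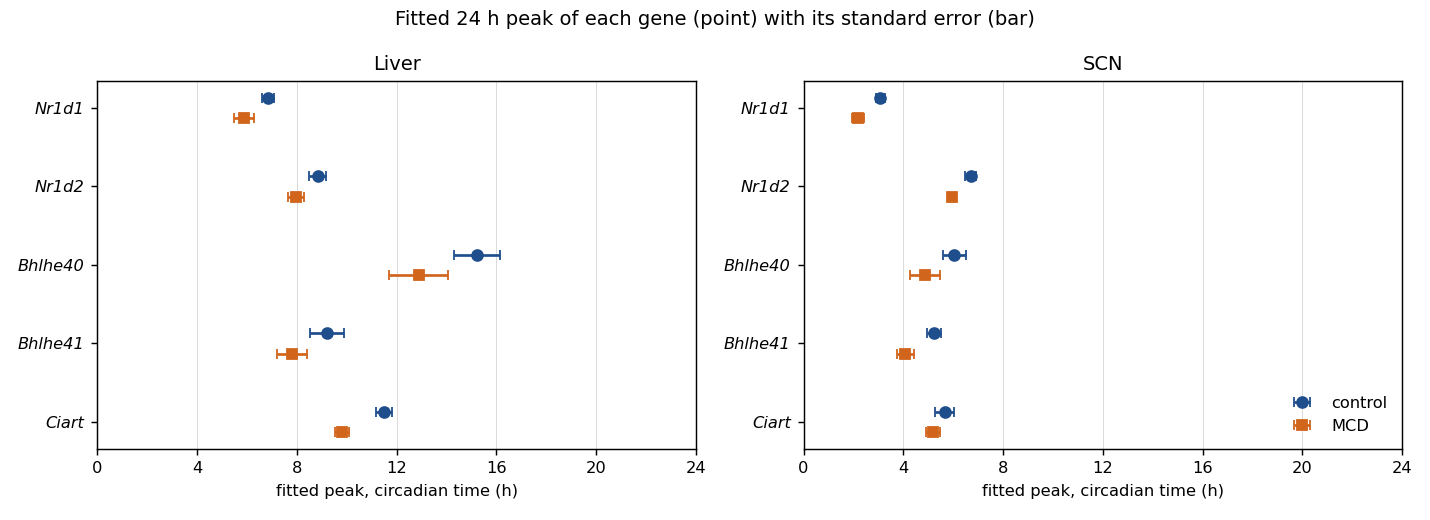
Fitted peak of each gene (points, circadian time in hours) with its standard error as bars, for control and MCD in liver and SCN. Every MCD point lies to the left of its control point, and liver peaks spread from CT5.87 to CT15.2 while SCN peaks lie between CT2.20 and CT6.71.

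The test of a diet difference in rhythm, which takes size and peak time together, called Ciart in liver and no other member, against 4.87% of all genes. The size of the difference was 2.63 on the log2 scale (adjusted p = 0.0278), against 2.22 for Nr1d1 (0.0949), 1.16 for Nr1d2 (0.0601), 1.74 for Bhlhe41 (0.285) and 0.76 for Bhlhe40 (0.669). The Ciart call was lost in 5 of 36 fits with 1 library left out, with adjusted p-values of 0.0506 to 0.0682, and with limma-voom (0.159). The libraries left out there were the control males of CT4, the control female of CT16, the second MCD male of CT4 and the first MCD male of CT16. It was also lost without replicate 1 (2.45, adjusted p = 0.382) and without replicate 2 (2.15, 0.377), and without replicate 3 the difference was 3.59 (0.00494). Within the low and the high kind it was 2.72 and 3.32 (adjusted p = 0.304 and 0.682).

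DESeq2 also called the rhythm difference of Nr1d1 (adjusted p = 0.03) and Nr1d2 (0.0121). The edgeR test called Nr1d2 in 4 of 36 fits with 1 library left out, with adjusted p-values of 0.0203 to 0.0492, the highest without control CT8 (a). It called Bhlhe41 without control CT8 (b) (0.0499) and Nr1d1 without the second MCD library of CT0 (2.56, 0.0183). Without the female MCD library of CT0 the value for Nr1d1 was 1.38 (0.241). The fitted range of Nr1d2 in liver was 3.53 on control and 2.66 on MCD, a difference of -0.87 whose 95% interval was -1.69 to -0.04. For Bhlhe41 it was 2.71 and 4.27, a difference of 1.56 (-0.14 to 3.25). In SCN none of the 5 was called for a rhythm difference by edgeR, DESeq2 or limma-voom, and 3 had an unadjusted p under 0.05 (Nr1d1, Nr1d2 and Bhlhe41), where 0.0127% of all genes were called and 3.78% had an unadjusted p under 0.05.

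Levels between genes were compared per kilobase of exon. On control diet in liver the order was Bhlhe40 at 34.9 ± 16.6, Nr1d1 at 15 ± 18.9, Nr1d2 at 11.2 ± 7.99, Ciart at 2.71 ± 4.11 and Bhlhe41 at 0.347 ± 0.538 CPM per kilobase (mean ± SD over 18 libraries of all times). In SCN it was Nr1d1 at 56.5 ± 28.2, Nr1d2 at 27.6 ± 13, Bhlhe41 at 11.9 ± 5.39, Bhlhe40 at 7.23 ± 1.90 and Ciart at 4.99 ± 3.22. The SDs hold the daily cycle. Neighbours such as Nr1d1 and Nr1d2 in liver, or Bhlhe40 and Ciart in SCN, lay within them, and the order was the same on MCD. The DEC genes changed places between tissues, with DEC1 the higher of the pair in liver and DEC2 in SCN.

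One model over the 72 libraries compared the tissues directly on control diet, treating liver and SCN libraries as independent. Relative to TMM scaling across tissues, SCN was higher by 4.22 ± 0.20 for Bhlhe41, 2.31 ± 0.19 for Nr1d1, 1.28 ± 0.19 for Ciart and 0.63 ± 0.10 for Nr1d2 on the log2 scale, and lower by -3.05 ± 0.16 for Bhlhe40. All 5 were called, with adjusted p-values of at most 6.73e-08, and 90.4% of all 14491 genes were called. With library totals alone the values were 4.93, 3.02, 2.00 and 1.33 in that order and -2.33 for Bhlhe40, while the median of all genes moved from 0.04 to 0.75. Rhythms on control differed between the tissues in all 5 genes, against 16.9% of genes, with adjusted p-values of 1.92e-13 for Ciart, 2.22e-11 for Nr1d1, 3.44e-08 for Nr1d2, 0.000444 for Bhlhe41 and 0.000689 for Bhlhe40. Without replicate 1 or 2 the Bhlhe41 call was lost (adjusted p = 0.0819 and 0.0853).

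Fitted SCN peaks on control came before fitted liver peaks in all 5 genes, although the liver rhythm of Bhlhe40 on control was not called. SCN minus liver was -3.77 h for Nr1d1 (95% interval -4.37 to -3.17), -2.13 h for Nr1d2 (-2.99 to -1.27), -3.99 h for Bhlhe41 (-5.53 to -2.45), -5.83 h for Ciart (-6.86 to -4.79) and -9.19 h for Bhlhe40 (-11.3 to -7.05). Among 618 genes rhythmic in both tissues on control, Bhlhe40 not among them, 57.8% peaked earlier in SCN, with a median of -1.33 h. The gap between tissues was therefore uneven among the members, smallest for Nr1d2 and largest for Bhlhe40. On MCD the values were -3.68, -2.0, -3.71, -4.61 and -8.01 h in the same order.

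The diet difference itself was compared between tissues. Only Ciart was called among the members, lower in SCN than in liver by -0.75 ± 0.24 (adjusted p = 0.0108), against 34.7% of genes. Without replicate 1 or 2 that value was -0.62 (adjusted p = 0.189) or -0.43 (0.329), and without replicate 3, which holds the females, it was -1.29 (8.07e-06). For Nr1d2 it was -0.25 ± 0.12 (adjusted p = 0.118), which was called with library totals alone (-0.40, adjusted p = 0.00782) and without replicate 2 (-0.37, adjusted p = 0.0307).

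Sex was compared with 24 male and 12 female libraries per tissue. In liver Bhlhe41 was lower in females by -1.26 ± 0.29 (adjusted p = 0.00459). Males ran from 0.310 to 15.9 CPM with a median of 1.41 CPM, and females from 0.135 to 4.81 CPM with a median of 0.683 CPM, so the sexes overlapped. It was the 1 member called in liver, against 9.44% of genes, and within the low and the high kind it was -0.77 (adjusted p = 0.285) and -2.60 (0.0655). Bhlhe40 averaged 152 CPM in males and 204 CPM in females, which did not pass the test (0.45 ± 0.19, adjusted p = 0.155).

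In SCN 2 of the 5 were lower in females, against 4.98% of genes called lower and 9.89% called in either direction. Ciart averaged 12.3 CPM in males and 9.69 CPM in females (-0.41 ± 0.11, adjusted p = 0.0164), and Nr1d1 178 and 161 CPM (-0.18 ± 0.06, adjusted p = 0.0397). The Nr1d1 call was lost in 12 of 36 fits with 1 library left out and with limma-voom (adjusted p = 0.0543), and the Ciart call without replicate 1 (0.233). In the same test 3 of 8 SCN markers were called, 1 higher and 2 lower in females. Of the hepatocyte, astrocyte, ependyma and other hypothalamus markers, 1 of each was called higher and 0 lower. Their part in the members' differences was not tested. No member's diet difference was called as different between the sexes by edgeR. In liver 3 had an unadjusted p under 0.05 and DESeq2 called Ciart (-1.23, adjusted p = 0.0425), against 1.77% of genes called by edgeR and 12.3% at an unadjusted p under 0.05. In SCN 0 members had an unadjusted p under 0.05, and 0 genes were called in all, with 826 at an unadjusted p under 0.05.

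The proteins that the REV-ERBs work with and the genes they act on were read from fixed lists. Among 6 repression targets known for REV-ERBs, 4 were lower on MCD in liver at CT4 and 0 higher, with a list median of -1.06 beside 0.003 for all genes and 1764 of 20249 genes called lower. At the other times the list had 1 call, higher at CT12, and its medians ran from -0.20 to 0.45, the highest at CT16. Cry1, a cryptochrome of the negative limb, fell by 1.38 ± 0.31 (adjusted p = 0.00316) and Arntl, the gene for BMAL1, fell by 1.48 ± 0.41 (0.0130). Npas2, a partner of BMAL1, fell by 2.57 ± 0.72 (0.0152) and Nfil3, a repressor of D-box genes, fell by 0.74 ± 0.26 (0.0446). With library totals alone the first 3 kept their calls and Nfil3 did not (adjusted p = 0.179). Nr1d1 and Nr1d2 themselves were not called at CT4. Over the day 1 of the 6 was called, Insig2, a gene of sterol control, lower by -0.41 (adjusted p = 0.00164), and library totals alone took it to -0.15 (0.230).

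Of 7 E-box output genes other than the members, 3 were higher on MCD at CT4 in liver and 0 lower. Wee1, a cell cycle kinase, rose by 1.59 ± 0.23 (adjusted p = 5.74e-05), Usp2, a deubiquitinase, by 2.37 ± 0.52 (0.00304) and Per1, a period gene, by 2.75 ± 0.61 (0.00327), beside the 3.01 of Ciart at the same time. The list's median there was 0.29, and 1915 of 20249 genes were called higher at that time. At CT20 the list had 0 calls higher and 2 lower, with a median of -0.78, and at CT0 it had 1 in each direction. It had 0 calls at CT8, CT12 and CT16, where its medians were 0.48, -0.20 and -0.54, so its direction was not the same over the day. All 3 were also called with library totals alone. Averaged over the day Wee1 (0.54, adjusted p = 1.93e-05) and Per1 (0.66, 0.0217) were higher, and Per3 (-0.64, 0.00399) and Tef (-0.42, 0.000381) were lower. The last 2 lost their calls with library totals alone (0.0548 and 0.0603).

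The counts over the day in the other liver lists are read against the 46.6% of all genes called for diet. Of 6 corepressor genes, 3 were called higher over the day (Ncor1 0.21, Tbl1xr1 0.30 and Gps2 0.15) and 1 lower (Hdac3 -0.13), and with library totals alone all 6 were called higher, Hdac3 included (0.13). Of 5 genes of REV-ERB protein turnover, Siah2, a ubiquitin ligase, was called (0.28, adjusted p = 0.00100), and all 5 were called higher with library totals alone. Of 5 period and cryptochrome genes 3 were called, with Cry2 lower (-0.38, 0.000235) beside Per3 and Per1, and Cry2 lost its call with library totals alone (-0.12, 0.118). The 3 PAR bZIP factors and Nfil3 had 1 call, Tef. Of 6 clock activators and ROR receptors 5 were tested, with 0 called higher and 1 lower over the day and 2 lower at CT4, Arntl and Npas2 as above. With library totals alone 1 was called higher over the day, Clock (0.20, adjusted p = 0.0195), and 0 lower. In SCN none of the 29 genes of these lists was called by edgeR for diet, with 2 at an unadjusted p under 0.05 against 4.73% of all genes, or for a rhythm difference, with 8 against 3.78%. Other tools were not run on the lists.

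The genes whose levels ran most like each member over the 36 libraries of a tissue were found by Pearson's r of log2 CPM, among 13835 genes in liver and 15717 in SCN with a mean of at least 1 CPM. These values describe libraries that share time of day and diet. In liver Nr1d1 ran most like Tns2 (0.91), Actn1 (0.88) and Nsmce2 (0.85) and least like Cry1 (-0.90). Nr1d2 ran most like Dbp (0.90), Gstt2 (0.84) and Tns2 (0.81) and least like Ppard (-0.97), and Bhlhe41 like Dbp (0.84), Gys2 (0.83) and Clmn (0.82) and least like Mreg (-0.87). Dbp is a PAR bZIP factor and a clock output, and it appeared for both. Ciart ran most like Por (0.92), Coq10b (0.92) and Rhbdd2 (0.92) and least like Asap2 (-0.94), and Bhlhe40 less closely like Gda, Cdc42ep4 and Sbk1 (0.77 each) and least like Bok (-0.78).

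In SCN the genes that ran closely with Nr1d1 included Rasl11b (0.91) and Junb (0.91), and it ran least like Gfod1 (-0.90). Nr1d2 ran with Inpp5f, Per1 and Gm6104 (0.96 each), and least like Tuba8 (-0.95). Per1, which light and the clock both induce, was also the closest to Bhlhe40 (0.88), with Coq10b at 0.84 and Akirin1 lowest (-0.88). Bhlhe41 ran with Rasl11b (0.96), Rgs16 (0.94) and Dbp (0.93), against Rasd1 at -0.90, and Ciart with Coq10b, Rcan1 and Dbp (0.93 each), against Ormdl1 at -0.88. Among the members themselves, r ran from -0.32 (Nr1d1 with Bhlhe40) to 0.85 (Nr1d1 with Nr1d2) in liver and from 0.54 (Nr1d1 with Nr1d2) to 0.89 (Nr1d2 with Ciart) in SCN.

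Counts per exon bin allowed a test of whether diet changed the share of a gene's reads in its parts. In liver 60 bins of the 5 genes were tested in 34 complete libraries, since the bin tables of 2 control CT0 libraries ended early, and in SCN 61 bins in 36 libraries. None of the 5 was called in liver (Simes p of 0.690 to 0.994, 0 under 0.05 unadjusted), where 3.78% of 14108 genes were called by diffSpliceDGE. None was called in SCN (Simes p of 0.597 to 0.994, 0 genes under 0.05 unadjusted), where 0.0458% of 15275 genes were called. Among single bins in SCN, Ciart bin 16 had an unadjusted diffSpliceDGE p of 0.0398 (log2 0.63). The share of all bins at that level was not counted.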

How the data were processed

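RNA was sequenced from 36 liver and 36 SCN libraries. The deposited values are raw gene counts and counts per exon bin. Per the submitters' processing notes, the tools were Trimmomatic, HISAT2, StringTie and DESeq2 and the build GRCm39, without stated versions or roles. All values printed here were computed from the deposited counts.

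Gene counts were filtered with filterByExpr (minimum count 10), scaled by TMM and fitted with edgeR 4.0.16 (robust quasi-likelihood) in R 4.3.3, with 1 model per tissue of 12 groups and sex and 1 model of all 72 libraries for tissue comparisons. A rhythm test takes the cosine and sine components over 24 h jointly, and peaks come from least-squares cosines on log2 CPM (prior count 2). P-values are two-sided and adjusted over all genes of a test. Exon bins were tested with diffSpliceDGE. Alternatives used DESeq2 1.42.0, limma 3.58.1, other scalings, no filter, no sex term, a replicate block, and fits without single libraries, without each replicate number, or within each mt-Nd6 kind. The fits were tested on simulated data.

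The labels do not say that a replicate number marks a shared animal or batch, and same-numbered libraries did not all correlate over 0.1, so the numbers were not taken to pair libraries. The columns of the 2 male control CT8 libraries share a name in each table, so they carry no number. The 5 genes and the gene lists were chosen with earlier results of these data known. Named genes are the members, up to 4 per list by lowest adjusted p, the 3 most and 1 least alike per member, and genes overlapping a member. Some genes that this rule names are not reported here. At these depths the lowest member counts per library were 10 in liver (Ciart) and 57 in SCN (Ciart), so counting error is largest there.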

Additional observations from a re-analysis of the deposited data

Results flagged for a closer look

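Ciart was flagged because its diet difference differed between the tissues by the test of the difference itself, by -0.75 on the log2 scale (SCN minus liver, edgeR adjusted p = 0.0108). Ciart was also flagged because its 24 h rhythm in liver differed between the diets, with a size of 2.63 on the log2 scale (edgeR adjusted p = 0.0278). All 5 genes were flagged because their rhythm on control diet differed between SCN and liver, with sizes of 5.53 for Nr1d1, 2.16 for Nr1d2, 1.95 for Bhlhe40, 2.65 for Bhlhe41 and 6.57 for Ciart on the log2 scale, where 16.9% of all genes were called in that test.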

How the results depend on the processing

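Under alternatives that did not leave out a single library, 160 counts of called members lay within 1.5 times the count reported and 31 did not. In liver the diet count of 2 was 1 with the replicate block, without control CT8 (a) and with a term for kind, and 0 within either kind. The rhythm count on MCD was 0 within the high kind. The rhythm difference count of 1 was 3 with DESeq2, 2 without control CT8 (a), and 0 with limma-voom, with the replicate block (where Ciart had an adjusted p of 0.0741) and within either kind. The sex count was 0 within either kind, the sex-by-diet count 1 with DESeq2 and the by-time count 5 with library totals alone. In SCN the sex count was 1 with limma-voom and the by-time count 1 with DESeq2. The tissue difference in diet effect was called for 2 genes with library totals alone. Fits within a kind hold fewer libraries, and the other causes were not tested.

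Without 1 library or 1 replicate number, the liver counts ran from 0 to 2 for diet, 0 to 4 by time, 0 to 3 for rhythm difference, 0 to 1 for sex and 0 to 1 for sex by diet. The SCN sex count ran from 0 to 2 and the tissue difference in diet effect from 0 to 1. Fits without replicate 3 hold no female and gave no sex test.

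Directions turned under the alternatives below in values that were not called as reported, and in peak shifts, which have no test. With single libraries left out, 28 uncalled liver or SCN values turned in sign in at least 1 fit. Over fits without 1 replicate number, the liver diet difference ran from -0.27 (without replicate 3) to 0.29 (without replicate 1) for Nr1d1 and from -0.066 to 0.44 for Bhlhe40. That of Nr1d1 was -0.16 within the high kind, that of Bhlhe40 -0.048 within the low kind and that of Bhlhe41 0.055 with library totals alone. The liver sex difference was 0.042 with library totals alone and 0.37 within the low kind for Nr1d1, and -0.39 with limma-voom and -0.18 within the low kind for Ciart. For Nr1d2 it was 0.031 with library totals alone, 0.081 within the low kind and -0.10 to 0.052 without 1 replicate number. Sex by diet for Bhlhe41 in liver was 0.0081 with DESeq2 size factors, 0.17 with limma-voom, 0.065 without control CT8 (a) and -0.092 to 0.35 without 1 replicate number, and in SCN -0.025 to 0.10. The SCN diet difference without 1 replicate number ran from -0.025 to 0.092 for Nr1d2 and from -0.0053 to 0.071 for Ciart. The SCN sex difference of Nr1d2 was -0.014 with library totals alone, -0.011 with limma-voom and -0.0089 to 0.028 without 1 replicate number. The tissue difference in diet effect ran from -0.36 to 0.19 for Nr1d1 and, without 1 replicate number, from -0.38 to 0.12 for Bhlhe40 (0.048 without replicate 1). Liver peak shifts within the high kind were +1.77 h for Nr1d1, +1.01 h for Nr1d2 and +0.93 h for Bhlhe41, which left 7 of 10 earlier. No circadian time has more than a single MCD liver library of that kind.

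Deviations of same-numbered control and MCD libraries correlated with a median r of -0.155 in liver, with 1 of 16 pairs over 0.1, and 0.133 in SCN, with 9 of 16 over 0.1. Of 34 pairs of a liver and an SCN library 14 were over 0.1. The replicate block is therefore not a test of paired animals.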
